A study of Homo sapiens with 4 samples.

Results

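The 10 genes described here encode the tropomyosins (TPM1, TPM2, TPM3 and TPM4) and a group named for smooth-muscle-type contractile proteins. Of that group, CALD1, MYL9, TAGLN and ACTA2 are known from myoepithelial cells, while TAGLN2 and CNN2 are more broadly expressed. All 10 genes were taken by gene symbol from tables of 60487 genes, and each symbol matched 1 row. The RNA was from HCC1937, a human cell line established from a breast carcinoma. The first of the paired lines carried restored wild-type BRCA1 (wtBRCA1, genotype given as wild type), and its counterpart carried an empty vector (genotype given as BRCA1 -/-). Each line was treated with OTX-015, an inhibitor of the BET bromodomain proteins, or with the solvent DMSO. All 4 groups, wtBRCA1 under OTX-015, wtBRCA1 under DMSO, vector under OTX-015 and vector under DMSO, share the HCC1937 background and have 1 library each. No difference between a pair of libraries therefore has a replicate check, and differences between the lines cannot be told apart from the clonal or culture history of these particular cells. Dose, duration and whether either line is a single clone are not given in the labels.

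Tropomyosins are coiled-coil proteins that polymerise head to tail along actin filaments and control which myosins and actin-binding proteins gain access to them. In smooth muscle and in myoepithelial cells, the contractile cells around the ducts of the mammary gland, caldesmon, calponins and transgelins bind the same filaments. There the phosphorylation of the myosin regulatory light chain sets contraction. In other epithelial cells most of the same families have non-muscle members that form stress fibres and the cell cortex. Many smooth muscle contractile genes are known targets of SRF, a transcription factor that binds the CArG box.

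The libraries differed in composition. The values, in FPKM (fragments normalised to transcript length and library total), summed to between 909314 and 1496107 per library, and the 10 highest genes held 33.8% and 39.2% of the sum in the OTX-015 libraries against 15.3% and 17.4% in the DMSO libraries. Short structural RNAs held a share of 5.55% to 5.72% in the wtBRCA1 libraries and 2.37% to 2.67% in the vector libraries. BRCA1 was at 2712 and 171 FPKM in the wtBRCA1 libraries under OTX-015 and DMSO, and at 40.8 and 37.2 FPKM in the vector libraries. The values hold no read counts, and sequencing depth is therefore unknown. The part of these differences in the results below was not tested.

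Levels of the 10 genes ranged from 0 to 224 FPKM. TAGLN2, TPM1, TPM3 and TPM4 were above 40 FPKM in every library and summed to 596 and 516 FPKM in the wtBRCA1 libraries under OTX-015 and DMSO and to 499 and 450 FPKM in the vector libraries. CALD1, TAGLN and CNN2 lay between 4.95 and 43.9 FPKM. MYL9 and ACTA2 were at most 1.06 and 2.41 FPKM. Of the genes known as smooth muscle markers, TAGLN reached 36.7 FPKM and ACTA2 stayed close to 0, and CNN1 and ACTG2, which are outside the group, were listed at 0 in every library, so the name smooth-muscle-type was met by some of these genes and not by others.

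**Figure D1:**
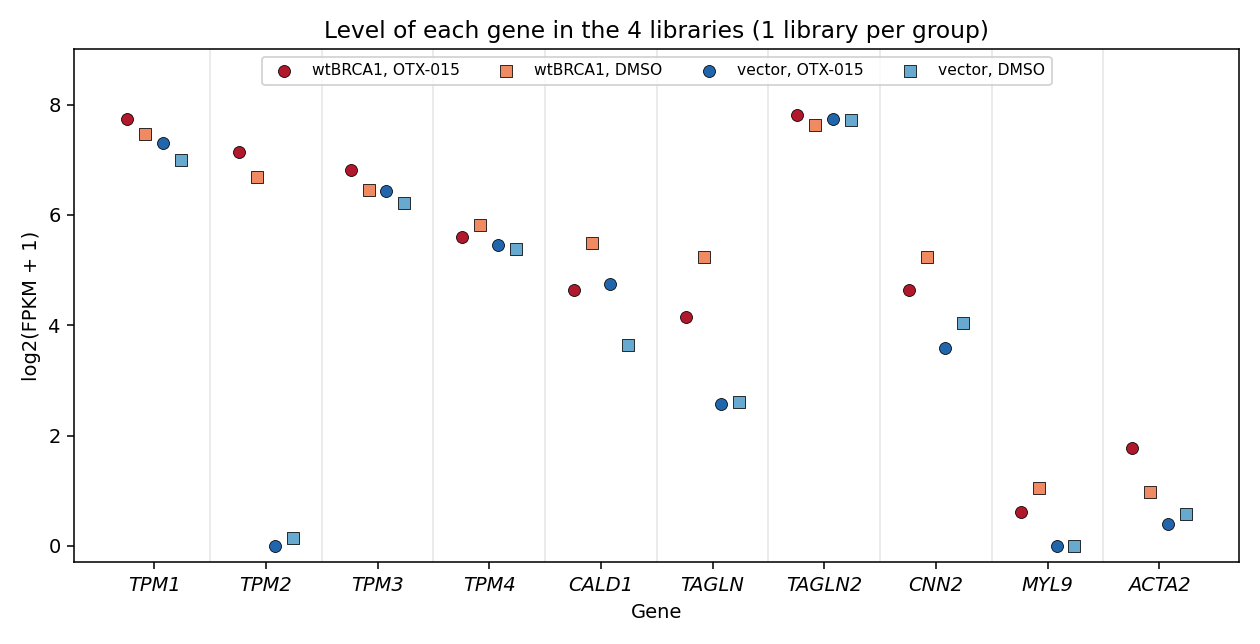
Level of each gene on the vertical axis, as log2(FPKM + 1), in the 4 libraries, 1 point per library and no error bars because each group has 1 library. TPM2 stands at 139 and 102 FPKM in the wtBRCA1 libraries and at 0 and 0.107 FPKM in the vector libraries, while the TAGLN2 points lie together.

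Between the lines, TPM2 and TAGLN rose in wtBRCA1 cells under both treatments and the other 8 genes did not pass the test. A gene was called when its adjusted p was under 0.05 in an additive limma model of log2(FPKM + 1) over all 4 libraries with line and treatment as terms, adjusted over the 18295 genes at 1 FPKM or more in at least 1 library. The 2 treatments stand in for replicates in that model, so the p does not measure the spread between repeated cultures. With 1 residual degree of freedom per gene, the standard errors rest largely on a variance trend shared over genes of like level. Of these 10 genes 2 were called higher and 0 lower, where 4.88% of all genes were called higher and 3.41% lower (8.29% in all). At an unadjusted limma p under 0.05 the genes were TPM2, TAGLN and CNN2, where 23.5% of all genes passed. TPM2 passed the filter only through the wtBRCA1 libraries, MYL9 only through wtBRCA1 under DMSO and ACTA2 only through wtBRCA1 under OTX-015. Those 3 could appear in the test only by being high there, so the share of the 10 that was called supports nothing further.

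TPM2 encodes beta-tropomyosin, a tropomyosin of muscle and of non-muscle stress fibres. TPM2 (ENSG00000198467, chromosome 9, 35681992 to 35690121, minus strand, GENCODE 29 on hg38) stood under DMSO at 102 FPKM in the wtBRCA1 library, against 0.107 FPKM in the vector library. Under OTX-015 it was at 139 FPKM in wtBRCA1 cells and listed at 0 in vector cells. The wtBRCA1 libraries were both high and the vector libraries both at or near 0. In bulk RNA, fewer cells of a type and less RNA per cell cannot be told apart. The fitted line difference was 6.83 ± 0.36 log2 (SE, limma adjusted p = 2.9e-05). Because the vector values are at or near 0, this difference depends on the added constant, and it was 9.69 log2 with 0.1 and 4.62 log2 with 5 in place of 1. By level TPM2 ranked 1369 and 1638 among all genes in the wtBRCA1 libraries under OTX-015 and DMSO.

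Gene starts of 8 of the 10 genes are in RefSeq's promoter table (GRCh38.p14, 18 windows of 300 bases, 250 before to 50 after a start); TAGLN and MYL9 are not in it. The nearer to the gene body of the 2 TPM2 windows is shown because TPM2 differs most between the lines. A window of TPM4 and the window of CNN2 are shown because each holds a CArG box, in capitals. A CArG box was searched on both strands as CC and GG around 6 letters that are each A or T, a palindromic pattern that reads alike on either strand.
TPM2, chr9:35689876-35690175, minus strand: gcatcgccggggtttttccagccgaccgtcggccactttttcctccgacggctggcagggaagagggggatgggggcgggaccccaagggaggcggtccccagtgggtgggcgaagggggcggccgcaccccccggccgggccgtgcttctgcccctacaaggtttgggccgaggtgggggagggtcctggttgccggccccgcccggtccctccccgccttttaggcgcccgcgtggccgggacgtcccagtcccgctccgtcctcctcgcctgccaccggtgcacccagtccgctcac
TPM4, chr19:16067288-16067587, plus strand: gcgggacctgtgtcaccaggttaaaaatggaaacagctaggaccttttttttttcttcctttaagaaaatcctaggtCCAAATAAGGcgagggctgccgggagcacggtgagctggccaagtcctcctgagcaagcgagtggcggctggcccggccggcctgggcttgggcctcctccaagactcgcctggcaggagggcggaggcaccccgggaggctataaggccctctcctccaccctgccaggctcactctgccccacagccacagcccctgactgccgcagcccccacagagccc
CNN2, chr19:1026358-1026657, plus strand: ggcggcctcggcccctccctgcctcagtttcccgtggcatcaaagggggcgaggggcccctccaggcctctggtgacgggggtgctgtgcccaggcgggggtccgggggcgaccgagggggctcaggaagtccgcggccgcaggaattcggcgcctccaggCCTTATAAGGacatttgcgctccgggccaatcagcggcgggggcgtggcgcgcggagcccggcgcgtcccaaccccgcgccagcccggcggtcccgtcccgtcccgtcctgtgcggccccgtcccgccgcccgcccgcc
The box begins 173 bases before the start in the TPM4 window shown and 89 bases before it in the CNN2 window, and its letters differ between them. Those were 2 of the 18 windows, so the other TPM4 windows hold none, and 1.29% of all 35116 promoter windows hold one (454). The TPM2 window shown has no such letters and is 74.0% G and C, against a median of 58.7% over all windows. TPM4 and CNN2, which each have a match, differed in level, and the matches are a description of the letters only.

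TPM1, TPM3 and TPM4 are the remaining tropomyosin genes, and each makes several isoforms that the gene-level values do not separate. TPM1 (ENSG00000140416, chromosome 15) was at 213 and 176 FPKM in wtBRCA1 cells under OTX-015 and DMSO, against 158 and 127 FPKM in vector cells. TPM3 (ENSG00000143549, chromosome 1) was at 112 and 86.0 FPKM in wtBRCA1 cells, against 85.6 and 72.9 FPKM in vector cells. TPM4 (ENSG00000167460, chromosome 19) was at 47.6 and 55.3 FPKM in wtBRCA1 cells, against 43.1 and 40.9 FPKM in vector cells. Each of the 3 was higher in wtBRCA1 than in vector cells within both treatments, by 0.14 to 0.47 log2, and none passed the test. The share of all genes higher within both treatments was not computed. Their line effects were 0.45 ± 0.25, 0.31 ± 0.28 and 0.28 ± 0.31 log2 (SE, limma adjusted p = 0.329, 0.562 and 0.632).

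Summed over the family, tropomyosin genes were at 511 and 419 FPKM in the wtBRCA1 libraries under OTX-015 and DMSO, and at 287 and 241 FPKM in the vector libraries. TPM2 made up 27.3% and 24.3% of that sum in the wtBRCA1 libraries and 0% and 0.04% in the vector libraries. TPM1 held the largest share in all 4 libraries, at 41.6% and 42.0% in wtBRCA1 cells and at 55.1% and 52.7% in vector cells. The order TPM1, TPM3, TPM4 was the same in every library, and TPM2 entered it between TPM1 and TPM3 in wtBRCA1 cells. A share within a library does not depend on how libraries are scaled to each other. No stretch of 50 bases in the GENCODE 29 transcripts of 1 tropomyosin gene is also in another of the 10 genes, and none of the 3513 such stretches of TPM2 is in any other gene.

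**Figure D2:**
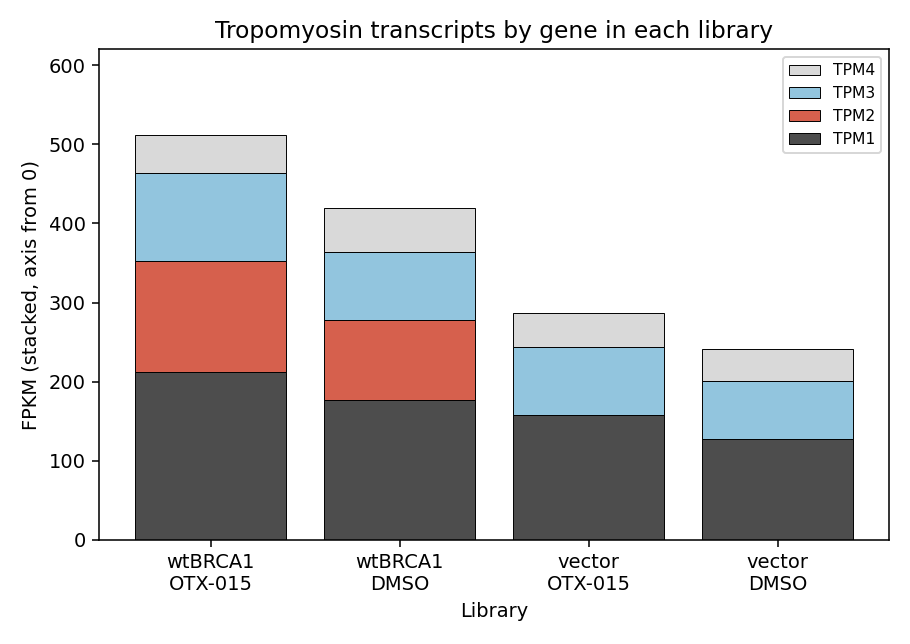
Stacked FPKM of the 4 tropomyosin genes (vertical axis, from 0) in each library (horizontal axis), 1 library per group. The sums are 511 and 419 FPKM in the wtBRCA1 libraries and 287 and 241 FPKM in the vector libraries, and the TPM2 block is visible in the wtBRCA1 libraries alone.

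Both transgelins are actin-binding calponin family proteins, TAGLN (SM22) being a smooth muscle marker and TAGLN2 widely expressed in epithelia. TAGLN (ENSG00000149591, chromosome 11, 117199321 to 117204782, plus strand) stood under DMSO at 36.7 FPKM in the wtBRCA1 library, against 5.07 FPKM in the vector library. Under OTX-015 it was at 16.8 FPKM in wtBRCA1 cells and 4.95 FPKM in vector cells. Both wtBRCA1 values lay above both vector values, and the share of all genes that separate in this way was not computed. The line effect was 2.11 ± 0.39 log2 (SE, limma adjusted p = 0.0108), and the call was lost with no filter on low values (adjusted p = 0.0612), without the mean-variance trend (0.0921) and without the treatment term (0.221). TAGLN2 (ENSG00000158710, chromosome 1) was at 224 and 198 FPKM in wtBRCA1 cells under OTX-015 and DMSO and at 212 and 209 FPKM in vector cells. Its highest value was 1.13 times its lowest, the smallest range of the 10 genes. TAGLN held 6.98% and 15.6% of the summed transgelin FPKM in the wtBRCA1 libraries under OTX-015 and DMSO, and 2.28% and 2.36% in the vector libraries.

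CNN2 and CALD1 bind actin filaments beside tropomyosin. CNN2 (ENSG00000064666, chromosome 19), the broadly expressed calponin, was at 23.8 and 36.6 FPKM in wtBRCA1 cells under OTX-015 and DMSO, against 11.1 and 15.4 FPKM in vector cells. The line effect of 1.12 ± 0.33 log2 missed the threshold (SE, limma adjusted p = 0.0707). The lines did not overlap, and the share of all genes without overlap was not computed. CALD1 (ENSG00000122786, chromosome 7), caldesmon, stood under DMSO at 43.9 FPKM in the wtBRCA1 library, against 11.5 FPKM in the vector library. Under OTX-015 it was at 24.0 FPKM in wtBRCA1 cells and 25.8 FPKM in vector cells. The line difference of CALD1 was 1.84 log2 under DMSO and -0.10 log2 under OTX-015, and the additive effect of 0.87 ± 0.45 log2 did not pass (SE, limma adjusted p = 0.287).

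MYL9 and ACTA2 were the lowest genes of the group. MYL9 (ENSG00000101335, chromosome 20), the regulatory light chain of smooth muscle and non-muscle myosin, was at 0.522 and 1.06 FPKM in wtBRCA1 cells under OTX-015 and DMSO and listed at 0 in both vector libraries. ACTA2 (ENSG00000107796, chromosome 10), smooth muscle alpha-actin, was at 2.41 and 0.967 FPKM in wtBRCA1 cells under OTX-015 and DMSO and at 0.312 and 0.498 FPKM in vector cells. The wtBRCA1 values were the higher ones for both genes, at levels where the unknown depth leaves the differences uncertain. Each gene passed the filter only through a wtBRCA1 library, so its highest value had to lie there. The share of all genes with both wtBRCA1 values higher was not computed. Neither passed the test (limma adjusted p = 0.493 and 0.392).

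Taken as differences between single libraries, 5 of the 10 genes were at least 1 log2 unit higher in wtBRCA1 than in vector cells under DMSO (TPM2, TAGLN, CALD1, CNN2 and MYL9), where 14.8% of all genes were. Under OTX-015 the number was 4 (TPM2, TAGLN, ACTA2 and CNN2), with 15% of all genes (2748 of 18295). None of the 10 was lower by that amount, with 11.7% and 12.6% of all genes lower under DMSO and OTX-015. The 10 differences had a median of 0.76 log2 with DMSO, beside 0.04 over all genes, and of 0.52 log2 with OTX-015, beside 0 over all genes. TPM2, TAGLN and CNN2 were past 1 log2 unit under both treatments, as were 6.11% of all genes, and none was lower by that amount under both, as were 4.43%. These counts have no test, and they include the 3 genes that entered only through a wtBRCA1 library.

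**Figure D3:**
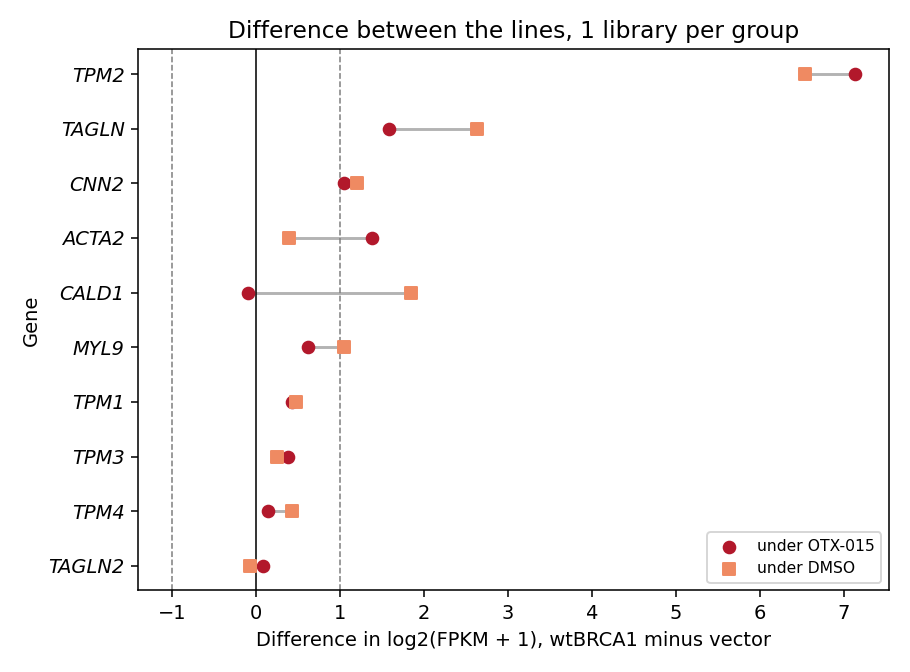
Difference in log2(FPKM + 1) between wtBRCA1 and vector cells (horizontal axis) for each gene, under OTX-015 (circles) and DMSO (squares), each from 1 library per group. Dashed lines mark 1 log2 unit in either direction; TPM2 lies at 7.13 and 6.54, TAGLN at 1.58 and 2.63, and CALD1 at -0.10 and 1.84.

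OTX-015 changed none of the 10 genes in both lines by the test, beside 3.66% of all genes called higher and 2.67% called lower (6.32% in all). The count was also 0 in each alternative setting that kept all libraries, with MYL9 and ACTA2 not tested at a filter of 5 FPKM. Over all genes, 67 were called after quantile normalization, 4 without the mean-variance trend and 1 with the line term left out. A count of 0 was thus to be had almost regardless of these genes there. In the main fit 0 of 10 had an unadjusted limma p under 0.05, where 22.8% of all genes did. The effects ranged from -0.55 ± 0.39 log2 for TAGLN to 0.30 ± 0.57 log2 for ACTA2 and 0.30 ± 0.28 log2 for TPM3 (SE), with limma adjusted p from 0.405 to 0.911. TPM1 and TPM3 were higher under OTX-015 in both lines, by 0.27 and 0.37 log2 in wtBRCA1 cells and 0.31 and 0.23 log2 in vector cells. CNN2 was lower by 0.60 and 0.44 log2. In single comparisons with 1 library per group, TAGLN was -1.08 log2 in wtBRCA1 cells (13.4% of all genes were at least 1 log2 unit lower) and CALD1 was 1.10 log2 in vector cells (13.0% were at least 1 log2 unit higher). None of the 10 was lower by 1 log2 unit in vector cells, where 12.7% of all genes were.

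For CALD1 the OTX-015 values had opposite signs in the 2 lines. In wtBRCA1 cells CALD1 was at 24.0 FPKM under OTX-015 and 43.9 FPKM under DMSO, a difference of -0.85 log2. In vector cells it was at 25.8 FPKM under OTX-015 and 11.5 FPKM under DMSO, a difference of 1.10 log2. The wtBRCA1 response minus the vector response was -1.95 log2, and that of TAGLN was -1.06 log2. With 1 library per group these values have no test, and 14.0% of all genes had a value of -1 or below. None of the 10 had a value of 1 or above, where 13.2% of all genes did, and TPM2, TPM4, CALD1 and ACTA2 had responses of opposite sign in the lines, where 29.6% of all genes did. ACTA2 had 0.79 log2 in wtBRCA1 cells and -0.19 log2 in vector cells, at the low levels given above.

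**Figure D4:**
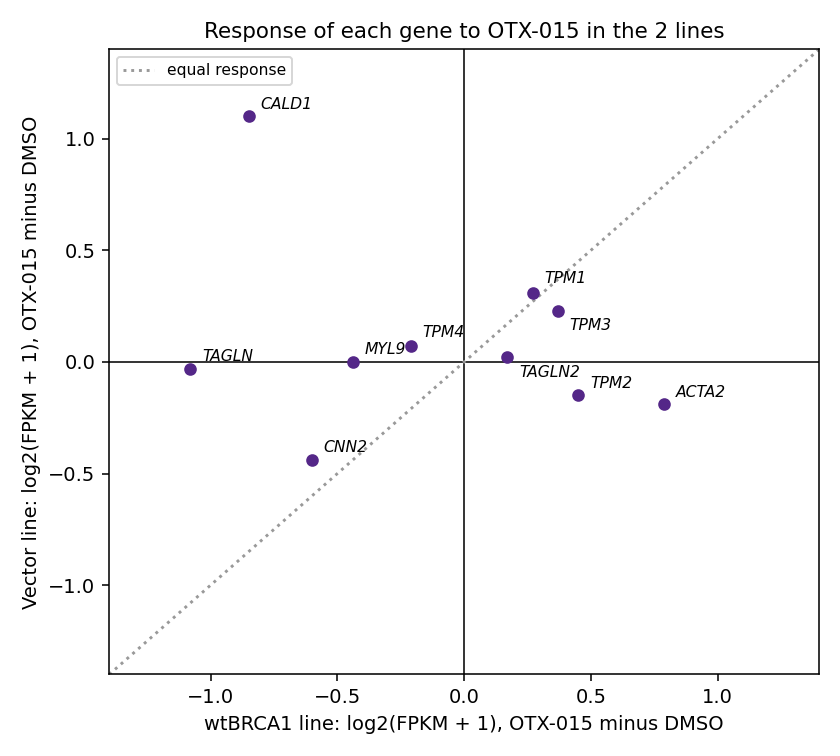
Difference in log2(FPKM + 1) between OTX-015 and DMSO in wtBRCA1 cells (horizontal axis) and in vector cells (vertical axis), 1 point per gene and 1 library per group. The dotted line marks an equal response; CALD1 lies at -0.85 and 1.10, TAGLN at -1.08 and -0.03, and TPM1 at 0.27 and 0.31.

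Several of the genes are listed in the deposited tables under the same locus as other genes. The labels describe directional libraries but not whether the FPKM values were computed by strand, and reads of genes at 1 locus may not have been separated. TPM1 shares its locus with the antisense gene RP11-244F12.2, listed at 211 and 173 FPKM in wtBRCA1 cells under OTX-015 and DMSO and at 133 and 127 FPKM in vector cells. Those values lie just below TPM1's own, with the widest gap in vector cells under OTX-015. CNN2 shares its locus with AC011558.5, on the opposite strand, which was at 438 and 517 FPKM in wtBRCA1 cells and 174 and 255 FPKM in vector cells, above CNN2 in every library and with the same order of lines. ACTA2-AS1, antisense to ACTA2, was at 3.13 and 2.55 FPKM in wtBRCA1 cells and 0.138 and 0.628 FPKM in vector cells. TAGLN shares its locus with PCSK7 and AP000892.6 (up to 31.5 and 63.6 FPKM), TPM4 with CTD-2231E14.2 (up to 41.6 FPKM) and MYL9 with DLGAP4 and DLGAP4-AS1 (up to 114 and 128 FPKM). ACTA2 also shares its locus with FAS and STAMBPL1 (up to 11.1 and 10.2 FPKM). No other gene listed at the locus of TPM2, CALD1, TPM3 or TAGLN2 reached 1 FPKM. The pseudogene TAGLN2P1 holds 5.84% of the 50-base stretches of TAGLN2 and was at 39.0 and 47.3 FPKM in wtBRCA1 cells and 52.6 and 50.2 FPKM in vector cells. The part of these neighbours in the values was not tested.

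Among all genes kept, the 5 with the level pattern nearest to TPM2 were SNRPN, C1orf21, SNURF, NPNT and TF. Likeness was measured as the distance between centred log2(FPKM + 1) values over the 4 libraries, which was 0.845 for SNRPN, the nearest, and 1.61 for TF. All 5 were listed at 0 or at most 0.306 FPKM in the vector libraries and lay between 32.0 and 150.4 FPKM in the wtBRCA1 libraries. They were picked for likeness to TPM2, so this pattern follows from the choice and is a description only.

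The wider actin and myosin apparatus was followed in 5 lists, actins, myosin II chains, regulators of myosin phosphorylation, filament crosslinking and capping proteins with relatives of calponin, and SRF with its cofactors and targets. Of their 58 genes, 50 reached the filter. In wtBRCA1 cells 3 rose and 4 fell, where 4.88% of all genes were called higher and 3.41% lower, the median difference being -0.02 log2 with DMSO and 0.02 log2 with OTX-015. PFN2, a profilin that delivers actin monomers, rose by 2.48 log2 (limma adjusted p = 0.00335), at 27.1 and 33.9 FPKM in wtBRCA1 cells under OTX-015 and DMSO and at 3.37 and 6.18 FPKM in vector cells. RHOC rose by 1.39 log2 (limma adjusted p = 0.00683), at 892 and 432 FPKM against 292 and 191 FPKM in vector cells. MYL12A, the non-muscle counterpart of MYL9, rose by 0.93 log2 (limma adjusted p = 0.0462).

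The filamin FLNC was listed at 0 and at 0.0384 FPKM in wtBRCA1 cells under OTX-015 and DMSO and at 37.0 and 6.57 FPKM in vector cells, and it fell (limma adjusted p = 0.00294). It passed the filter only through the vector libraries and could be called only in that direction. MYLK, the kinase of the myosin light chain, fell by 1.77 log2 and RHOB by 1.58 log2 (limma adjusted p = 0.0275 and 0.0446). The RHOB difference was -1.15 log2 under OTX-015 and -2.00 log2 under DMSO. Genes of the lists thus moved in both directions. Of these 7 calls, 3 were kept after quantile normalization (FLNC, PFN2 and RHOC), 3 with no filter and 0 without the mean-variance trend. The cytoplasmic actins did not pass. ACTB was at 1355 and 986 FPKM in wtBRCA1 cells under OTX-015 and DMSO and at 2008 and 1479 FPKM in vector cells. ACTG1 was at 261 and 430 FPKM in wtBRCA1 cells and at 2003 and 539 FPKM in vector cells. The muscle actins ACTA1, ACTC1 and ACTG2 were listed at 0 in all 4 libraries.

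Under OTX-015, 10 of the 50 rose and none fell, where 3.66% of all genes were called higher and 2.67% lower, with median differences of 0.35 log2 in wtBRCA1 cells and 0.47 log2 in vector cells. The 10 were CTGF (4.49 log2) and CYR61 (1.86 log2), matricellular genes, FLNA, ACTN4, SMTN, PDLIM7, CNN3 and GSN of the list of crosslinking, capping and calponin family genes (0.83 to 1.77 log2), and the myosin chains MYH9 (1.14 log2) and MYL12A (1.07 log2), with limma adjusted p from 0.00514 to 0.0484. TLN1, talin, had 1.18 log2 and did not pass (limma adjusted p = 0.0516). Most of these calls depended on the settings. Of the 10, 2 were kept after median-of-ratios scaling or with a pseudocount of 5, 3 at a filter of 5 FPKM, and 0 after quantile normalization, with no filter or without the mean-variance trend. The share held by the 10 highest genes, given above, was also larger in both OTX-015 libraries, and its part in these calls was not tested. CNN3, the third calponin gene, was at 418 and 159 FPKM in wtBRCA1 cells under OTX-015 and DMSO and at 299 and 146 FPKM in vector cells, whereas CNN2 had lower values under OTX-015 in both lines.

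Markers of cell types were read beside the line difference. Of 14 myoepithelial and basal markers that reached the filter, 4 rose in wtBRCA1 cells and none fell, where 4.88% of all genes were called higher and 3.41% lower: KRT5, MME, KRT17 and ITGB4 (4.79, 5.21, 1.60 and 1.69 log2, limma adjusted p at most 0.0449). MME was listed at 0 in both vector libraries, so it passed the filter only through the wtBRCA1 libraries, could be called only higher, and its difference depends on the added constant. The line difference of KRT17 was 0.46 log2 under OTX-015 and 2.74 log2 under DMSO, and that of ITGB4 was 0.90 log2 under OTX-015 and 2.48 log2 under DMSO. The remaining 10 did not pass. Under DMSO, 8 of the 14 were at least 1 log2 unit higher in wtBRCA1 cells and 1 lower, and under OTX-015 3 were higher and 0 lower. OXTR and LAMA3 had line differences of -1.48 and -0.87 log2 under DMSO and of 0.22 and 0.31 log2 under OTX-015. TP63 was at 9.93 FPKM in wtBRCA1 cells and 0.147 FPKM in vector cells under DMSO, and was listed at 0 in both lines under OTX-015. Summed over the 16 listed, their level was 2661 and 2867 FPKM in wtBRCA1 cells under OTX-015 and DMSO and 1538 and 618 FPKM in vector cells. In the wtBRCA1 libraries most of it was KRT5 (573 and 980 FPKM) and KRT17 (1118 and 920 FPKM), so the sum largely repeats those calls. The smooth muscle genes of that list, CNN1 and ACTG2, were listed at 0 in every library, and MYH11 was between 4.45 and 5.95 FPKM. Of 12 luminal markers, 5 fell in wtBRCA1 cells and none rose, KRT8, KRT18, KRT19, KRT7 and CLDN3, where 3.41% of all genes were called lower. The other 7 did not pass and were mixed in direction. Under DMSO, 7 of the 12 were at least 1 log2 unit lower and 2 higher, ELF3 (1.15 log2) and MUC1 (1.08 log2). Under OTX-015, 4 were lower by that amount and 0 higher, with ELF3 at -0.99 log2 and MUC1 at -0.01 log2. CLDN3 passed the filter only through the vector libraries. With OTX-015 the basal marker CAV1 fell by 2.84 log2 and SFN rose by 1.31 log2 (limma adjusted p = 0.00239 and 0.0222). Among luminal markers MUC1 fell by 1.80 log2, KRT7 fell by 0.76 log2 and KRT8 rose by 1 log2 (limma adjusted p = 0.0273, 0.0344 and 0.0223). Over all genes 3.66% were called higher and 2.67% lower with OTX-015. The marker calls of either effect were not followed through the alternative settings. OTX-015 calls over all genes fell from 1157 to 67 after quantile normalization and to 4 without the mean-variance trend.

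Of the 12 fibroblast markers, 6 were at 0 throughout. COL1A2, COL3A1, PDGFRA, PDGFRB, DCN and POSTN were listed at 0 in all 4 libraries, VIM was at 1.71 and 3.58 FPKM in wtBRCA1 cells and 0.641 and 0.363 FPKM in vector cells, and 1 of the 4 that reached the filter, FBLN1, fell. The 12 fibroblast markers summed to 38.8 and 41.6 FPKM in wtBRCA1 cells and 88.9 and 85.7 FPKM in vector cells. Most of that sum was FBLN1, at 28.6 and 28.2 FPKM in wtBRCA1 cells and 84.2 and 80.5 FPKM in vector cells. COL1A1 went the other way, like VIM, at 8.39 and 9.78 FPKM in wtBRCA1 cells and 4.01 and 1.86 FPKM in vector cells. It did not pass (limma adjusted p = 0.0655). Among smooth muscle and pericyte markers, CNN1 and KCNMB1 were listed at 0 throughout, DES was at 1.30 FPKM in the vector library with DMSO and listed at 0 elsewhere, and MYOCD did not exceed 0.0642 FPKM. The 12 summed to 103.4 and 66.7 FPKM in wtBRCA1 cells and 49.1 and 34.2 FPKM in vector cells, most of it SMTN and NOTCH3. Of the 5 that reached the filter, 0 were called higher and 0 lower between the lines, where 4.88% and 3.41% of all genes were. The part of the basal and luminal markers in the TPM2 and TAGLN differences was not tested.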

How the data were processed

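The authors deposited FPKM values per gene. The submitters' processing notes name TopHat2, Cufflinks and the hg38 build. The RNA was poly(A)-selected and made into directional libraries, per the labels' protocols. Versions, annotation release and scaling between libraries are not given in the sources used here. Of 60487 gene identifiers, 94.2% were in GENCODE 29. Genes of short structural RNAs (7528) were removed. Rows with the same symbol were added together (67 symbols). The 18295 genes at 1 FPKM or more in at least 1 library were analysed as log2(FPKM + 1), which understates changes of low genes.

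limma 3.58.1 (R 4.3.3) was fitted with line and treatment as additive terms and the mean-variance trend, leaving 1 residual degree of freedom per gene, and p-values were adjusted by Benjamini-Hochberg over the 18295 genes. The procedure was run on simulated data drawn from the fit's own variances with additive effects only. That run checks the code and cannot show whether the calls in these unreplicated libraries hold. Differences of single libraries were not tested. One gene of the related lists is counted but not reported here. Genes of the related lists were named when past the threshold in either effect, or at 1 log2 unit or more in both comparisons of a factor with 5 FPKM in a library. The 10 genes, the lists and this rule were chosen with earlier results of these data known. Alternatives were pseudocounts of 0.1 and 5, other filters, median-of-ratios and quantile scaling, the highest row per symbol, no trend, robust estimation, 1 factor alone, and each library left out. Python 3.11.15 with pandas 2.3.3 and matplotlib 3.10.9 was used.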

Additional observations from a re-analysis of the deposited data

Results flagged for a closer look

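With 1 library per group, the following genes were singled out because their differences had opposite signs in the 2 lines or under the 2 treatments; the difference was not tested in any of them, and 29.6% of all genes had OTX-015 responses of opposite sign. The response to OTX-015 in wtBRCA1 cells minus that in vector cells was -1.95 log2 for CALD1 (-0.85 in wtBRCA1 cells and 1.10 in vector cells), 0.98 for ACTA2 (0.79 and -0.19), 0.60 for TPM2 (0.45 and -0.15) and -0.29 for TPM4 (-0.21 and 0.07). The wtBRCA1 to vector difference under OTX-015 minus that under DMSO was likewise -1.95 log2 for CALD1, which is the same quantity, and 0.15 for TAGLN2 (0.08 and -0.08).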

How the results depend on the processing

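No paired analysis was possible because each group has 1 library and no replicate numbers pair samples; the additive model itself compares the lines within treatments, and leaving out the other factor drops that. The 2 calls between the lines, TPM2 and TAGLN, were both kept with pseudocounts of 0.1 and 5, median-of-ratios and quantile scaling, a filter of 5 FPKM and robust estimation. They were also kept with the highest row per symbol, a setting that leaves the values of these genes unchanged because each symbol matched 1 row. The count was 1 (TPM2) with no filter, without the trend and with the treatment term left out. It was 0 when that term and any 1 library were left out, fits in which 0 genes of the whole table passed, with TPM2 effects of 6.61 to 7.06 log2 and TAGLN effects of 1.57 to 2.65 log2. The calls over all genes numbered 1516 for the line and 1157 for OTX-015, against 173 and 4 without the trend, 503 and 81 with no filter, and 697 and 67 under quantile normalization.

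Genes past 1 log2 unit between the lines under OTX-015 numbered 2 with a pseudocount of 5, against 4. For OTX-015 the numbers in wtBRCA1 and in vector cells were 2 and 2 with a pseudocount of 0.1 and 0 and 0 with a pseudocount of 5, against 1 and 1. Reversed OTX-015 effects were -0.30 log2 for TPM2 with a pseudocount of 0.1 and -0.12 for TAGLN2 after quantile normalization. Without the line term and with 1 library left out, line and treatment are mixed by construction, and OTX-015 effects ran over -3.42 to 3.72 log2 for TPM2, -0.28 to 0.14 log2 for TPM4, -0.80 to 1.05 log2 for CALD1, -0.74 to 0.30 log2 for MYL9, -1.87 to 0.76 log2 for TAGLN, -1.12 to 0.08 log2 for CNN2 and -0.39 to 0.99 log2 for ACTA2. The lowest and highest of the values that changed sign there were -3.42 and -3.12 log2 for TPM2 and 0.23 and 0.76 log2 for TAGLN. No line effect changed sign, apart from TAGLN2, which was at 0 and took small values of either sign. For all genes except CALD1 and TAGLN2, both wtBRCA1 values lay above both vector values. Another pseudocount or the loss of a library could not reverse the sign there, so the kept signs show nothing further. The alternatives for the related lists were chosen after seeing the data. Depth is unknown, so a value listed at 0 sets no limit on expression.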
